A study of Mus musculus with 16 samples.

Results

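The collagen genes are the protein-coding genes of the mouse whose symbol is Col, a number, the letter a and a number, each of which encodes an α chain of a collagen. The annotation holds 44 of them, and all 44 have a value in the deposited table, which covers 21872 protein-coding genes. They were followed in total RNA from 16 immortalised mouse embryonic fibroblast (MEF) lines. Values are “regularised log” (rlog) values, a log2 scale on which counts, corrected for library size, are drawn towards the mean of the gene, most strongly where reads are few. A step of 1 is a doubling before this shrinkage, so that a difference understates the change of a gene with few reads.

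Collagens are triple helices of 3 α chains. Type I, II, III, V and XI collagens form the striated fibrils of connective tissue, and type II, IX and XI collagens together build the fibrils of cartilage. Type IV collagen is the network of basement membranes, type VI collagen forms beaded filaments around cells, and fibroblasts are the main source of type I and type III collagen in most tissues. Many trimers join chains of different genes, and for this reason the balance between partner chains was examined beside the level of each gene.

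The lines come from C57BL/6J embryos at E13.5. Fibroblasts of 2 sibling embryos, a male (MEF-1) and a female (MEF-2), were carried through crisis by serial passaging, and the resulting parental lines were sampled for single cells. MEF-1 and MEF-2 each comprise 1 parental line and 7 clonal lines, all without a targeted genetic change or treatment, grown to the same confluency, with 1 library per line. A clonal line is the progeny of 1 cell, and each set comes from 1 embryo. The 7 clonal lines of a set therefore replicate a parental line and not an embryo. The median level of the genes of chromosomes 12, 18 and 19 differed between the sets by 0.59, 0.28 and −0.36 (MEF-2 minus MEF-1), and Col17a1 is the only collagen gene on these chromosomes. Embryo, sex, history of immortalisation and chromosome dosage cannot be told apart in a difference between the sets, and p-values measure only the spread between clonal lines.

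Of the 8 fibroblast markers of the list used here, 7 had averages of 10.61 to 20.82, among them the intermediate filament gene Vim at 17.97 to 18.46 in MEF-1 clones and 17.79 to 18.36 in MEF-2 clones. The other, Thy1, was low, with an average of 4.74 and values of 2.72 to 3.43 in MEF-1 clones and 3.42 to 8.02 in MEF-2 clones. Markers of endothelial (4 genes), blood (3 genes) and osteoblast cells (5 genes) were low, with averages of at most 4.94, 5.03 and 5.66. Of 4 epithelial markers, Epcam, Krt5 and Krt14 had averages of 3.15, −1.74 and −0.32, and the cadherin gene Cdh1 averaged 7.44, with 6.50 to 8.41 over the clonal lines. Of 6 chondrocyte markers, the proteoglycan gene Acan and the transcription factor gene Sox9 stood high, at averages of 15.92 and 14.06. Comp, Hapln1, Matn3 and Matn1 averaged 9.49, 7.98, 7.38 and 4.40, all below the 60th percentile of protein-coding genes (9.95). These fibroblast lines thus carry RNA of some cartilage genes as well. The table holds no counts. Depth is for this reason unknown, and no interval for counting error can be given.

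Many collagen genes were among the genes with the highest rlog values in these lines. Of the 44, 19 (43.2%) lay above the 80th percentile of all protein-coding genes in the average of the 16 lines, a bound that 4375 of all protein-coding genes exceed. Exon length, which also raises the reads of a gene, was not taken off for these percentiles. Levels per kilobase are not at hand for all genes. A further 5 lay between the 60th and the 80th, 13 between the 40th and the 60th percentile, and 5 between 0 and the 40th. Col13a1, a transmembrane collagen, and Col22a1, a collagen of tissue junctions, had averages of −0.29 and −0.75 and were not tested. Per kilobase of merged exons, the log2 level over the 16 lines was highest for Col1a1 (18.17 ± 0.29, SD, n = 16), followed by Col1a2 (16.28 ± 0.28) and Col3a1 (15.66 ± 0.38), the chains of type I and type III collagen. Col5a2 (15.21 ± 0.34) and Col2a1 (15.14 ± 0.74) came next and did not differ beyond their spread. With the length of the longest transcript in place of merged exons, Col1a1, Col1a2 and Col3a1 kept the first places at 18.31, 17.50 and 16.48, and Col2a1, at 15.995, moved above Col5a2, at 15.74. Among the chains of type IV collagen, Col4a2 (11.42 ± 1.13) and Col4a1 (11.12 ± 1.04) lay beside Col4a5 (11.12 ± 0.21), while Col4a4, Col4a3 and Col4a6 were at 6.09 ± 1.48, 5.08 ± 1.69 and 3.92 ± 2.06 per kilobase.

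Several members are neighbours in the genome, and these are shown first since the results turn on them (mm10, GENCODE gene bounds). Col4a1 (chr8:11198423-11312826, minus strand) and Col4a2 (chr8:11312805-11449287, plus strand) lie head to head, and their annotated starts overlap by 22 bases (the gap is −22 bp). Col4a4 (chr1:82448423-82586849, minus strand) and Col4a3 (chr1:82586921-82722059, plus strand) lie head to head with 71 bp between them. Col4a6 (chrX:141165403-141474076, minus strand) and Col4a5 (chrX:141475385-141689234, plus strand) are 1308 bp apart in the same arrangement. The upstream windows below are from RefSeq (GRCm38.p6), 250 bases before to 50 bases after the annotated start, written 5′ to 3′ on the strand of the gene. They were picked with the co-variation below known, which Col4a1 with Col4a2 passed and Col4a5 with Col4a6 did not pass. A bearing of the windows on co-variation was not tested. Capitals mark CCAAT and GGGCGG on either strand (ATTGG and CCGCCC are their reverse complements). The Col4a1 window is chr8:11312777-11313076 (minus strand) and the Col4a2 window chr8:11312555-11312854 (plus strand), which share 78 bases. The Col4a6 window is chrX:141474027-141474326 (minus strand) and the Col4a5 window chrX:141475169-141475468 (plus strand).
Col4a1: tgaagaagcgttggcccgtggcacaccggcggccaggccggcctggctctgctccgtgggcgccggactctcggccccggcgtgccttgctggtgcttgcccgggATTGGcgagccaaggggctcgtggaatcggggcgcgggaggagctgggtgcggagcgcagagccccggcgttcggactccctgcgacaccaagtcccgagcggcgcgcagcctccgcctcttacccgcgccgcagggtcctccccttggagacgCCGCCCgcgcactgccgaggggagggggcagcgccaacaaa
Col4a2: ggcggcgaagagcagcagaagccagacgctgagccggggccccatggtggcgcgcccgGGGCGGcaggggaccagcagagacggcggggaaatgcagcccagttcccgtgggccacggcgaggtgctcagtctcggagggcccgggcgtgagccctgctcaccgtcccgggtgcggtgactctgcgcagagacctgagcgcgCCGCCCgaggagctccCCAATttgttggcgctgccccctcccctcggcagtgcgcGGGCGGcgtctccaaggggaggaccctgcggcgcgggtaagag
Col4a6: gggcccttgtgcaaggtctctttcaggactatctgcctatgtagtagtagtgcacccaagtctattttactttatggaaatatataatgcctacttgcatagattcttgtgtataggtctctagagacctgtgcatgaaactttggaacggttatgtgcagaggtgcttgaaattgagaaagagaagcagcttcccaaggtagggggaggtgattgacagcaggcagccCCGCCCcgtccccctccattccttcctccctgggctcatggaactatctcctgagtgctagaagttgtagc
Col4a5: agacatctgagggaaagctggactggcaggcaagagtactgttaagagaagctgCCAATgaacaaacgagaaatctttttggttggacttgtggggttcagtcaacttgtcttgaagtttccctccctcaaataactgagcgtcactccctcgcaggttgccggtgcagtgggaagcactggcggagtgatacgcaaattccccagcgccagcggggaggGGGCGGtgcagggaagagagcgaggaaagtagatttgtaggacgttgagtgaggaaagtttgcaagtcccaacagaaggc

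The Col4a1 and Col4a2 windows hold 37 and 33 CpG dinucleotides, against 3 for Col4a6, 11 for Col4a5 and 14 for Col4a4, whose window holds none of the 3 motifs given next. RefSeq gave 38 windows for 35 of the members, and no window was at hand for Col1a1, Col2a1, Col5a2, Col12a1, Col14a1, Col4a3, Col9a3, Col22a1 and Col26a1. GGGCGG, a GC box, was found on either strand in 23 of the 38 (60.5%), beside 35.7% of the 32851 windows of all genes. CCAAT was found in 34.2% of the collagen windows and 37.4% of all, and TATAAA in 13.2% and 13.6%. The median number of CpG dinucleotides was 11.5 in the collagen windows and 7 in all. A match to these letters is a description of the window and not a mapped binding site.

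The first comparison was between the 7 MEF-1 and the 7 MEF-2 clonal lines. Of the 42 members tested, 23 differed between the sets (limma on the rlog values, two-sided, Benjamini-Hochberg adjusted p under 0.05 over 15285 genes), 9 being higher in MEF-2 and 14 higher in MEF-1. Of all genes tested, 56.1% were called, 27.5% higher in MEF-2 and 28.6% higher in MEF-1, so that the share of collagen genes called was near that of any gene. Their median absolute difference was 0.69, beside 0.30 for all genes tested, and 14 of the 42 were called with a difference of 1 or more, 7 in each direction, beside 12.9% of all genes. The median signed difference, MEF-2 minus MEF-1, was −0.37 for the collagen genes and −0.004 for all genes. The sets did not overlap for 8 members, 2 with MEF-2 above and 6 with MEF-1 above, beside 25.9% of all genes. This count rose to 13 without MEF-2 clonal line 3, and was 3 with the parental lines counted in their sets. It cannot fall when a line is left out or rise when lines are added. The shares of all genes under these settings are not at hand.

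**Figure D1:**
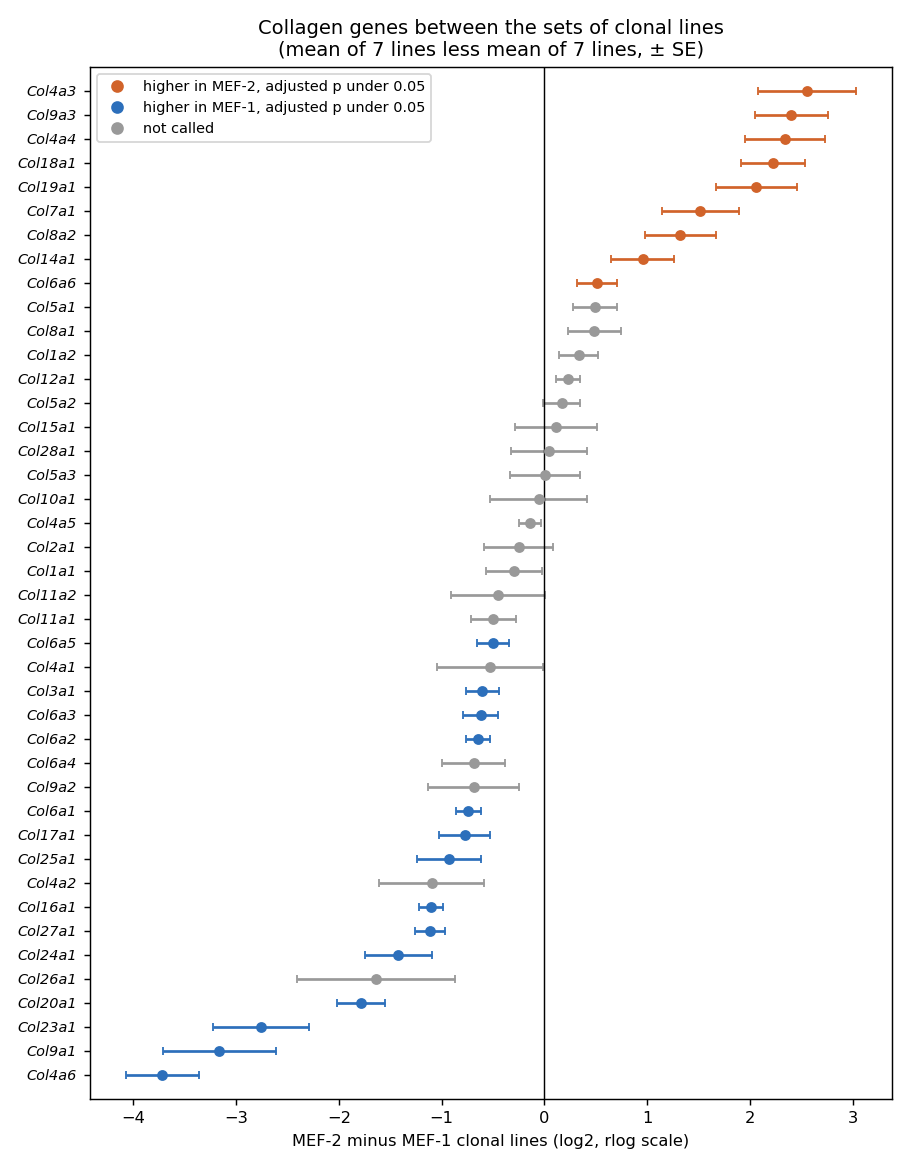
Difference of the mean rlog value between the 7 MEF-2 and the 7 MEF-1 clonal lines (x axis, log2) for each of the 42 collagen genes tested, with the standard error of the limma fit. Orange points are called higher in MEF-2 and blue points higher in MEF-1. Col4a3 lies at the top with 2.55 and Col4a6 at the bottom with −3.72.

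Among the 11 fibrillar collagens, 3 were higher in MEF-1 (Col3a1, Col24a1 and Col27a1), none was higher in MEF-2, and 8 were not called. By limma at an unadjusted p under 0.05, 1 was higher in MEF-2 (Col5a1), and an exact permutation test adjusted over the same genes called 1 (Col1a2). Col1a1, the chain present in 2 copies in type I collagen, ran from 20.73 over a median of 20.96 to 21.41 in MEF-1 and from 20.31 over 20.69 to 21.13 in MEF-2. These ranges overlapped widely, with a difference of −0.30 (SE 0.27, limma adjusted p = 0.367). The limma SE draws on the variance trend of all genes as well as on the lines, whose SDs were 0.27 and 0.28. Col1a2, its partner, ran from 19.51 over 19.77 to 20.09 in MEF-1 and from 19.88 over 20.11 to 20.54 in MEF-2, and its difference of 0.34 (SE 0.19) was not called (limma adjusted p = 0.144). It passed the threshold with no trend in the variance prior, with a robust prior, with all gene types tested or with an exact permutation test, at limma or permutation adjusted p-values of 0.0194 to 0.03.

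Col3a1, the chain of type III collagen found with type I in elastic tissues, ran from 19.03 over 19.29 to 19.72 in MEF-1 and from 18.43 over 18.62 to 19.07 in MEF-2. The sets overlapped in their outer lines, and the level was 1.52-fold higher in MEF-1 (difference −0.60, SE 0.16, limma adjusted p = 0.00449). The chains of type V collagen, which starts and limits the growth of type I fibrils, were not called. Col5a1 ran from 17.44 over 17.62 to 17.81 in MEF-1 and from 17.15 over 18.01 to 18.84 in MEF-2 (limma adjusted p = 0.0646), with a called difference of 0.65 without MEF-2 clonal line 3, its lowest line (limma adjusted p = 0.00553). It was also called after removal of the chromosome medians (0.57, limma adjusted p = 0.0223) and with parental lines included (0.48, limma adjusted p = 0.0475). Col5a1 lies on chromosome 2, whose median in MEF-2 clonal line 3 was −0.23, against −0.03 to 0.004 in the other MEF-2 clonal lines. Col5a2 ran from 18.05 over 18.33 to 18.52 and from 17.77 over 18.50 to 19.12 (limma adjusted p = 0.452). For both, the MEF-2 lines enclosed the MEF-1 lines on either side. Col27a1, a fibrillar collagen of developing cartilage, ran from 11.82 over 12.41 to 13.11 in MEF-1 and from 11.002 over 11.26 to 11.45 in MEF-2, without overlap, and was 2.17-fold higher in MEF-1 (difference −1.12, SE 0.15, limma adjusted p = 1.70e-05). Col24a1, a fibrillar collagen of developing bone, ran from 2.54 over 4.05 to 5.15 and from 2.43 over 2.69 to 3.22, with MEF-1 clonal line 6 inside the MEF-2 range (difference −1.42, SE 0.33, limma adjusted p = 0.00199).

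Type IV collagen held the largest differences in both directions. Col4a3 and Col4a4, whose chains make the mature network of the kidney glomerulus with that of Col4a5, were higher in MEF-2, Col4a6 was higher in MEF-1, and Col4a1, Col4a2 and Col4a5 were not called. Col4a3 ran from 6.12 over 6.35 to 7.97 in MEF-1 and from 7.60 over 9.33 to 10.88 in MEF-2. MEF-2 clonal line 3, at 7.60, was the only line of its set within the MEF-1 range. The difference was 2.55 (SE 0.48, limma adjusted p = 3.82e-04), or 5.87-fold. Col4a4 ran from 7.32 over 7.99 to 8.90 and from 8.84 over 10.48 to 11.79, again with MEF-2 clonal line 3 alone inside the other range, and was 5.07-fold higher in MEF-2 (difference 2.34, SE 0.39, limma adjusted p = 1.51e-04).

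Col4a6 ran from 7.42 over 8.27 to 10.18 in MEF-1 and from 4.28 over 4.85 to 5.49 in MEF-2. The gap between the sets was wider than the range of MEF-2, and the level was 13.2-fold higher in MEF-1 (difference −3.72, SE 0.35, limma adjusted p = 5.88e-07). Its X-linked neighbour Col4a5, the chain with which it assembles in smooth muscle basement membranes, ran from 13.54 over 13.97 to 14.27 and from 13.65 over 13.76 to 13.86, the narrowest range of any member tested in MEF-2. The median of X-linked genes differed by 0.06 between the sets. Col4a1 and Col4a2, the chains of the common basement membrane network, ran from 12.68 over 14.16 to 15.11 and from 13.06 over 14.39 to 15.79 in MEF-1. In MEF-2 they ran from 11.51 over 13.70 to 15.04 and from 11.50 over 13.503 to 14.91. The lines of a set thus differed more than the sets did (differences −0.53 and −1.09, limma adjusted p = 0.398 and 0.0813). The difference of Col4a2 was called without MEF-1 clonal line 7 (−1.35, limma adjusted p = 0.0321) and without MEF-2 clonal line 6 (−1.33, limma adjusted p = 0.0368), the lowest and the highest line of their sets.

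The cartilage collagens did not move as a group. Col2a1, the chain of type II collagen, was high in every line, from 17.49 over 18.41 to 19.28 in MEF-1 and from 17.28 over 18.08 to 18.72 in MEF-2 (limma adjusted p = 0.545). Col11a1 and Col11a2, chains of type XI collagen, were not called either (limma adjusted p = 0.0671 and 0.419), although Col11a1 passed the threshold without MEF-1 clonal line 2, MEF-1 clonal line 7 or MEF-2 clonal line 6 (differences −0.57, −0.62 and −0.59, limma adjusted p = 0.0429, 0.0178 and 0.0357). The chains of type IX collagen, which coats type II fibrils, went opposite ways. Col9a1 ran from 7.75 over 9.13 to 12.19 in MEF-1 and from 5.28 over 6.21 to 7.51 in MEF-2, without overlap, and was 8.95-fold higher in MEF-1 (difference −3.16, SE 0.55, limma adjusted p = 2.03e-04). Col9a3 ran from 7.21 over 8.22 to 8.48 in MEF-1 and from 9.49 over 10.47 to 12.16 in MEF-2, also without overlap, and was 5.29-fold higher in MEF-2 (difference 2.40, SE 0.36, limma adjusted p = 5.20e-05). Col9a2 lay between them (difference −0.69, limma adjusted p = 0.194). Of the 6 chondrocyte markers, 3 were higher in MEF-1 (Matn1, Hapln1 and Comp, differences −3.15, −2.26 and −1.75), Matn3 was higher in MEF-2 (0.84), and Acan and Sox9 were not called (limma adjusted p-values of 3.06e-04 to 0.0175 for the 4 called). Their summed level ran from 15.22 to 16.54 in MEF-1 and from 15.60 to 16.67 in MEF-2 on the log2 scale. Most of this sum is Acan, at 14.56 to 16.14 in MEF-1 and 15.06 to 16.39 in MEF-2. The part of chondrocyte-like cells in these collagen values was not tested, and in bulk RNA fewer cells of a kind and less RNA per cell cannot be told apart.

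Of the other fibril-associated collagens, Col19a1, Col14a1, Col20a1 and Col16a1 were called. Col19a1, a collagen of basement membrane zones, ran from 8.50 over 9.33 to 11.60 in MEF-1 and from 11.14 over 11.72 to 12.42 in MEF-2, where only MEF-1 clonal line 6 reached the MEF-2 range, and was 4.18-fold higher in MEF-2 (difference 2.06, SE 0.40, limma adjusted p = 4.73e-04). Col20a1 ran from 6.09 over 6.70 to 6.95 and from 4.29 over 4.58 to 5.78, without overlap (difference −1.78, SE 0.23, limma adjusted p = 1.38e-05). Col16a1, which associates with fibrils and microfibrils, did not overlap either and was 2.15-fold higher in MEF-1 (difference −1.10, SE 0.12, limma adjusted p = 2.10e-06). Col14a1, which regulates fibril diameter, was 1.94-fold higher in MEF-2 (difference 0.96, SE 0.30, limma adjusted p = 0.0149). Col12a1, the fibril-associated collagen with the highest level, was not called (difference 0.23, limma adjusted p = 0.112), but passed the threshold under 5 of the 25 settings tried for this fit.

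The 3 chains of classical type VI collagen were all higher in the MEF-1 clonal lines, and by similar amounts. Col6a1 ran from 16.10 over 16.19 to 16.77 in MEF-1 and from 15.28 over 15.54 to 16.09 in MEF-2, so that the sets met at MEF-2 clonal line 2 without overlap. Col6a2, which lies 85.2 kb from Col6a1 on chromosome 10, ran from 14.84 over 15.06 to 15.42 and from 14.08 over 14.42 to 14.95. Col6a3 ran from 15.56 over 16.12 to 16.62 and from 15.20 over 15.46 to 16.07. MEF-2 clonal line 2 was the highest MEF-2 line for each of these chains. The differences were −0.74 (SE 0.12), −0.64 (SE 0.12) and −0.62 (SE 0.17), with limma adjusted p-values of 1.48e-04, 3.11e-04 and 0.00689. The MEF-1 and MEF-2 parental lines stood at 15.61 and 15.56 for Col6a1, 14.44 and 14.40 for Col6a2, and 16.61 and 16.39 for Col6a3. For Col6a1 and Col6a2 the MEF-1 parental line lay below all of its clonal lines, and for Col6a3 inside their range. Of the alternative chains on chromosome 9, all under 5 on the rlog scale, Col6a5 was higher in MEF-1 (difference −0.50, limma adjusted p = 0.0132, or 0.0672 after quantile normalisation), Col6a6 was higher in MEF-2 (0.51, limma adjusted p = 0.034), and Col6a4 was not called (limma adjusted p = 0.0698). The call of Col6a6 was lost without MEF-1 clonal line 4, 5, 6 or 7 or MEF-2 clonal line 1, 2 or 5 (limma adjusted p-values of 0.0501 to 0.0704). Col6a4 was called without MEF-1 clonal line 1 or 4 (differences −0.81 and −0.87, limma adjusted p = 0.0395 and 0.0182).

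Among the remaining collagens, Col18a1, the multiplexin whose C-terminal fragment is endostatin, was higher in MEF-2. It ran from 9.53 over 10.23 to 11.003 in MEF-1 and from 11.42 over 12.25 to 13.56 in MEF-2, without overlap, a 4.69-fold difference (2.23, SE 0.31, limma adjusted p = 2.81e-05). Col7a1, the chain of the anchoring fibrils of skin, ran from 10.97 over 12.00 to 12.49 and from 12.32 over 13.15 to 14.73, and was 2.87-fold higher in MEF-2 (difference 1.52, SE 0.37, limma adjusted p = 0.00311). Of the short chain network collagens, Col8a2 was higher in MEF-2 (difference 1.32, SE 0.34, limma adjusted p = 0.00444), and Col8a1 and Col10a1 were not called, although Col8a1 was called without MEF-1 clonal line 2 (0.66, limma adjusted p = 0.0185) or MEF-2 clonal line 3 (0.63, limma adjusted p = 0.0357). All 3 transmembrane collagens tested were higher in MEF-1. Col23a1 ran from 8.28 over 9.41 to 10.71 and from 5.69 over 6.61 to 8.71, with MEF-2 clonal line 3 inside the MEF-1 range, and was 6.77-fold higher in MEF-1 (difference −2.76, SE 0.47, limma adjusted p = 1.60e-04). Col25a1 and Col17a1 followed with −0.93 and −0.77 (limma adjusted p = 0.0182 and 0.0153), and neither was called after quantile normalisation of the lines (limma adjusted p = 0.119 and 0.219). Col17a1 lies on chromosome 19, whose median was 0.36 lower in MEF-2 than in MEF-1, and after the median of the chromosome was taken off each line its difference was −0.41 (limma adjusted p = 0.17). Col15a1, Col26a1 and Col28a1 were not called (limma adjusted p-values of 0.0833 to 0.926). Col26a1 stood at 8.00 in MEF-1 clonal line 1 and between 1.66 and 3.41 in the other MEF-1 clonal lines, and without that line a difference of −0.83 was called (limma adjusted p = 0.0228). With all clonal lines kept, the exact permutation test called it as well (−1.64, adjusted p = 0.0198).

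**Figure D2:**
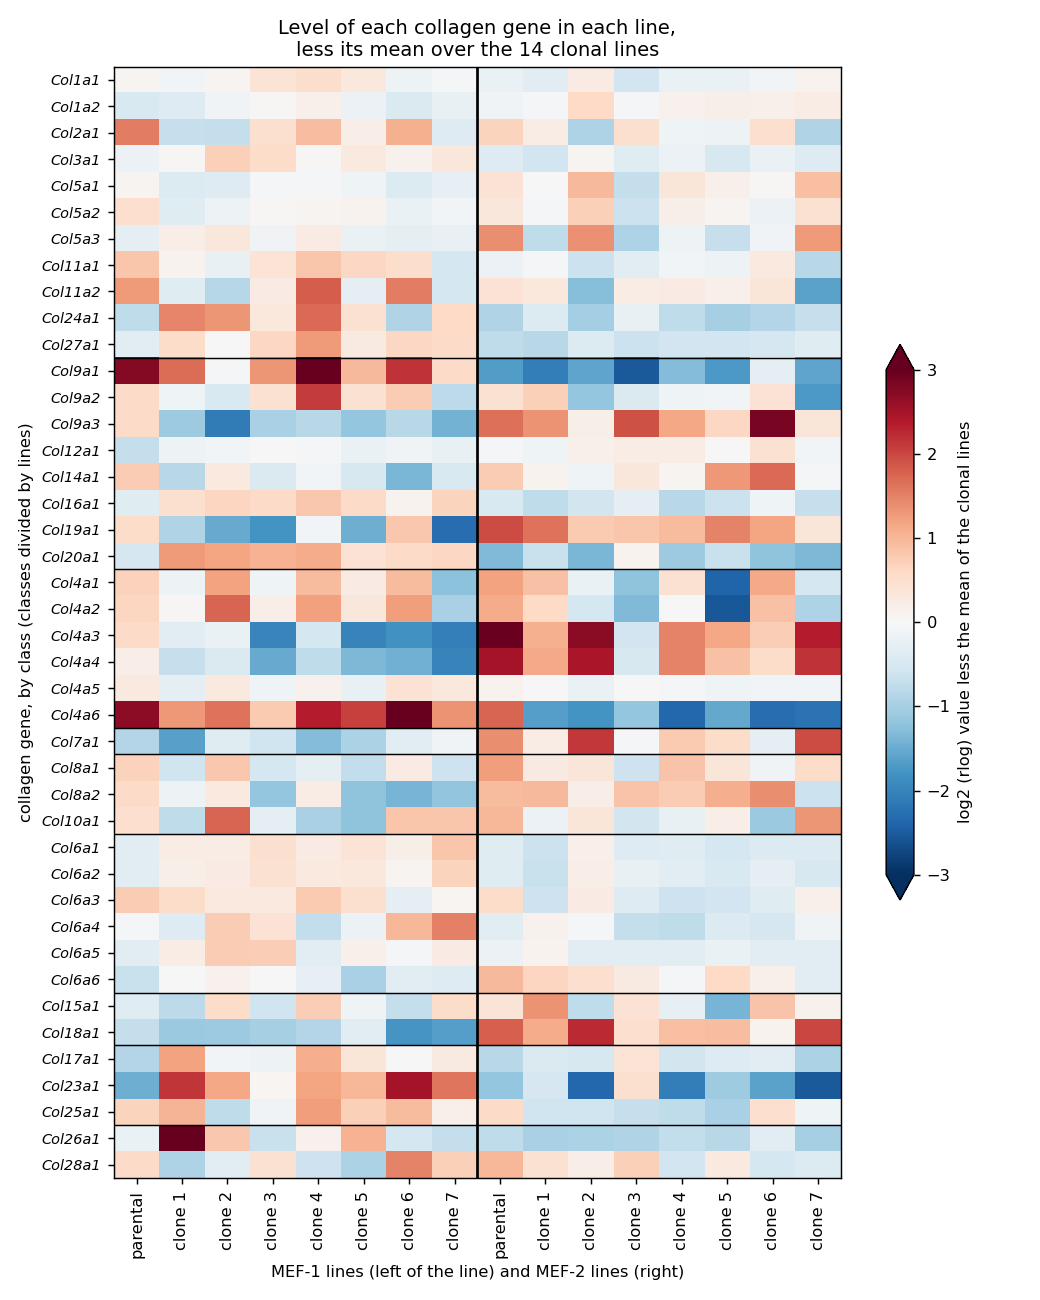
Heat map of the 42 collagen genes tested (rows, grouped by class) in the 16 lines (columns, MEF-1 left and MEF-2 right, parental line first). Colour gives the rlog value less the mean of the gene over the 14 clonal lines, on a scale that ends at −3 and 3. Col4a1 and Col4a2 share their pattern across lines, and Col26a1 stands out in MEF-1 clonal line 1.

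The second question was how far the level of a collagen differs between clones of the same parental line. Of the 24 members above the 60th percentile, where shrinkage is weaker than for genes with few reads, 13 (54.2%) had a range of 1 or more over the 7 MEF-1 clonal lines, beside 10.3% of the 8749 genes above the same percentile. Over the MEF-2 clonal lines it was 14 (58.3%), beside 7.8% of all. The median SD of these collagen genes was 0.37 in MEF-1 and 0.44 in MEF-2, against 0.15 and 0.12 for all genes above the percentile. These are descriptions without a test. Without each line in turn the counts were 11 to 13 in MEF-1 and 11 to 14 in MEF-2.

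The range was narrow for the chains of type I collagen (0.58 to 0.83) and wide for Col4a1 and Col4a2 (2.43 to 3.53), while that of Col4a5, another basement membrane chain, was 0.73 in MEF-1 and 0.21 in MEF-2. Among members above the 40th percentile, the widest ranges in MEF-1 were those of Col9a1 (4.45) and Col19a1 (3.10), and in MEF-2 those of Col4a1 (3.53) and Col4a2 (3.41). MEF-2 clonal line 5 had the lowest values of both Col4a1 and Col4a2 (11.51 and 11.50), and MEF-2 clonal line 6 the highest (15.04 and 14.91). Col5a1, Col5a2 and Col5a3 had ranges of 1.69, 1.36 and 2.31 in MEF-2 against 0.37, 0.47 and 0.60 in MEF-1. That difference in spread was not tested.

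**Figure D3:**
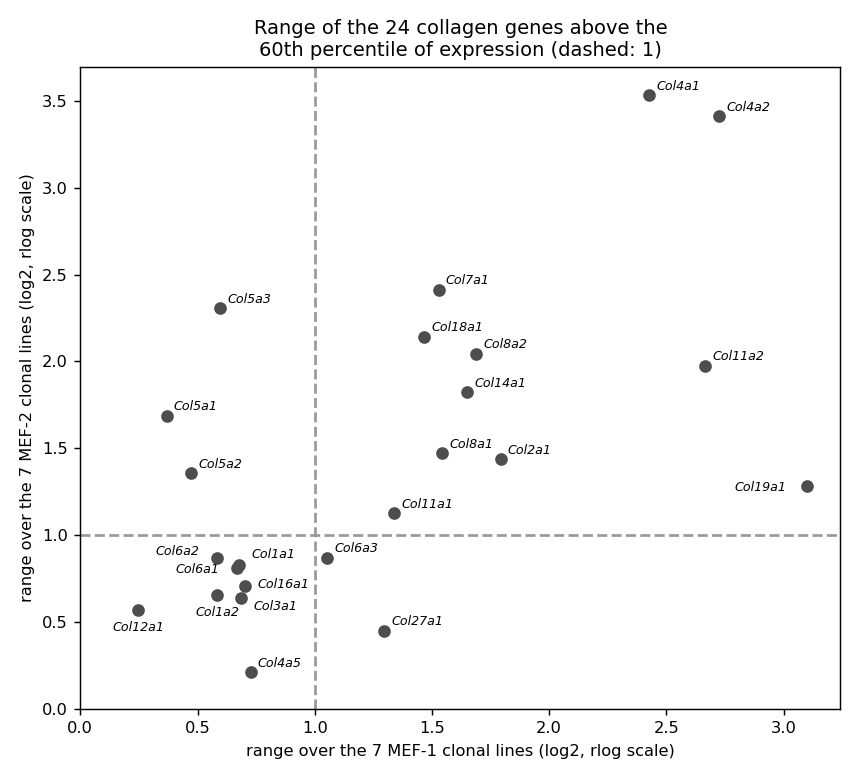
Range of the rlog value over the 7 MEF-1 clonal lines (x axis) and over the 7 MEF-2 clonal lines (y axis) for the 24 collagen genes above the 60th percentile of expression, with dashed lines at 1. Col4a1 and Col4a2 lie at the upper right, and Col5a1, Col5a2 and Col5a3 are above 1 in MEF-2 and below 1 in MEF-1.

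Partner chains were then compared across the lines of each set, in 17 pairs known to share a trimer, a fibril or a family, which gives 34 relations. Each correlation is over 7 clonal lines, with an exact two-sided permutation p adjusted over the 34. Of these, 14 passed on Pearson's r, 7 in each set, and 11 on Spearman's rho, 5 in MEF-1 and 6 in MEF-2. Those lost on rho were Col5a1 with Col5a2 and Col9a1 with Col9a2 in MEF-1 (exact permutation adjusted p = 0.0774 for each) and Col6a1 with Col6a2 in MEF-2 (0.141). The 37 members above the 40th percentile form 666 pairs, partners among them. In these, r was above 0.9 for 13 pairs in MEF-1 and for 26 in MEF-2. No share over pairs of other genes is at hand. Col4a1 and Col4a2 gave Pearson's r = 0.991 in MEF-1 (Spearman's rho = 0.964) and 0.997 in MEF-2 (rho = 1.0), both with an exact permutation adjusted p of 0.0027 (raw p = 3.97e-04 and 1.98e-04, the latter the smallest that 7 lines allow). Without the 2 lines farthest from the median, r was 0.990 and 0.992. Col4a3 and Col4a4 gave r = 0.935 (rho = 0.893, exact permutation adjusted p = 0.00675) and 0.992 (rho = 0.964, adjusted p = 0.0027), or 0.852 and 0.971 without 2 lines. The remaining head-to-head pair, Col4a5 and Col4a6, did not pass in either set (r = 0.527 and 0.256, exact permutation adjusted p = 0.361 and 0.718). Without 2 lines its r was 0.685 in MEF-1 and −0.037 in MEF-2.

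Chains of type I, V and VI collagen also rose and fell together. Col1a1 and Col1a2 gave r = 0.907 in MEF-1 (rho = 0.964) and 0.90 in MEF-2 (rho = 0.893), with exact permutation adjusted p = 0.0217 and 0.0281 and r = 0.712 and 0.800 without 2 lines. Col5a1 and Col5a2 gave r = 0.887 (rho = 0.821) and 0.984 (rho = 0.964), with adjusted exact p = 0.0291 and 0.0027 and r = 0.886 and 0.954 without 2 lines. Col6a1 and Col6a2 gave r = 0.957 (rho = 0.964) and 0.953 (rho = 0.750), with adjusted exact p = 0.0027 and 0.0223, but r fell from 0.953 to 0.532 in MEF-2 without 2 lines, so that the relation there rests on them. Col6a3 was not called with either of these chains in either set. Col11a1 and Col11a2 passed in MEF-2 (r = 0.908, rho = 0.964, adjusted exact p = 0.00675) and not in MEF-1 (r = 0.749, adjusted exact p = 0.128), and Col9a1 and Col9a2 passed in MEF-1 (r = 0.913, rho = 0.821, adjusted exact p = 0.0264) and not in MEF-2 (r = 0.167, adjusted exact p = 0.804). Whether these sets differ was not tested.

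**Figure D4:**
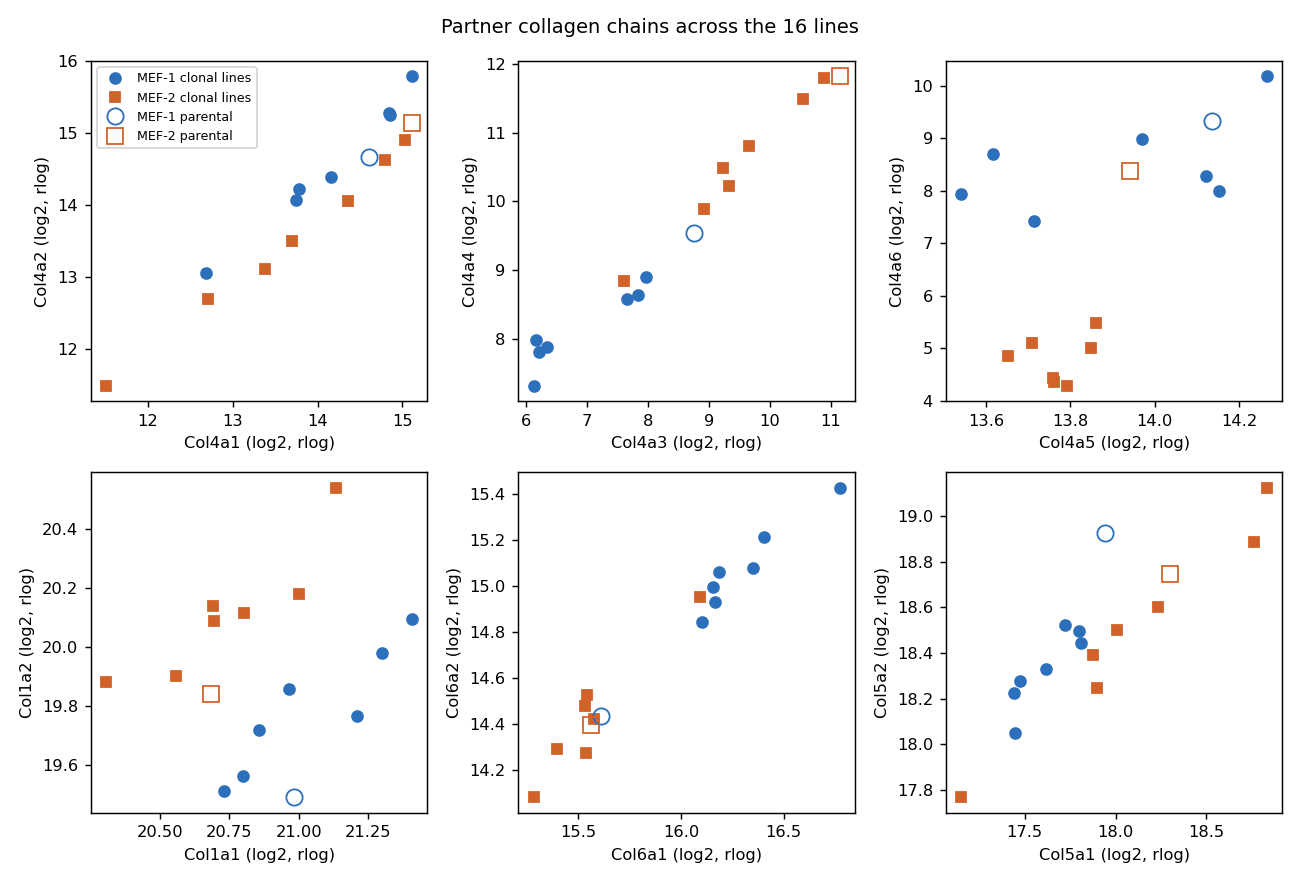
Rlog values of partner chains plotted against each other in 6 panels, with blue circles for MEF-1 and orange squares for MEF-2 clonal lines and open symbols for the parental lines. Col4a1 with Col4a2 and Col4a3 with Col4a4 lie along a line, and the MEF-2 lines lie above the MEF-1 lines in the panel of Col1a1 with Col1a2. For Col4a5 with Col4a6 the clonal lines fall into separate groups by set. The MEF-2 parental line, with Col4a6 at 8.38, lies there among the MEF-1 clonal lines.

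The difference in log2 level between the chains of a pair within a line does not depend on the size of the library. Exon length was not taken off, so the value of a balance is not a ratio of chains. The annotated length is the same in every line and drops out of a difference between the sets. This balance differed between the sets for 9 of the 17 pairs (exact permutation test, two-sided, adjusted over the 17 pairs). No share over other gene pairs is at hand, and of all single genes tested 56.1% were called by limma. A balance can also differ where only a single chain does, as with Col4a5, not called, and Col4a6, called. Col1a1 exceeded Col1a2 by 1.26 ± 0.12 (SD, n = 7) in MEF-1 and by 0.62 ± 0.12 (SD, n = 7) in MEF-2, with lines at 1.11 to 1.45 and 0.42 to 0.82. The sets did not overlap (exact permutation p = 5.83e-04, the smallest that 7 against 7 lines can give, adjusted p = 0.00165), although limma called neither chain alone and the exact permutation test called Col1a2 (adjusted p = 0.025). The parental lines of MEF-1 and MEF-2 stood at 1.49 and 0.84 for this balance. The balance of Col4a1 to Col4a2 was −0.41 ± 0.14 in MEF-1 and 0.15 ± 0.12 in MEF-2, again without overlap and with the same p. The parental lines stood at −0.07 in MEF-1 and −0.03 in MEF-2, each outside the range of its clonal lines. Within each set this balance varied by at most 0.45, while the chains themselves ranged over 2.43 to 3.53.

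The balance of Col4a5 to Col4a6 was 5.41 ± 0.79 in MEF-1 and 8.99 ± 0.43 in MEF-2, and in the parental lines 4.80 and 5.56, the latter below every MEF-2 clonal line. Col9a1 and Col9a2 stood at 0.22 ± 0.69 and −2.25 ± 1.01, and Col9a2 and Col9a3 at 1.05 ± 0.72 and −2.05 ± 0.74. These 3 pairs, and Col1a1 with Col5a1, did not overlap and had the same exact permutation adjusted p of 0.00165. Col5a1 with Col5a2, Col3a1 with Col5a2, and Col15a1 with Col18a1 also passed (exact permutation adjusted p = 0.00283, 0.00619 and 0.0121). The 3 pairs among Col6a1, Col6a2 and Col6a3 differed by −0.12 to −0.02 between the sets and did not pass (exact permutation adjusted p-values of 0.0684 to 0.905).

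Over all pairs of the 37 members above the 40th percentile, a family of 1332 relations chosen after the data had been seen, 12 passed on Pearson's r (exact permutation adjusted p = 0.044 for each), 3 in MEF-1 and 9 in MEF-2. These 12 had raw p-values of 1.98e-04 or 3.97e-04. None passed on Spearman's rho, whose lowest exact permutation adjusted p was 0.0881 (raw p = 3.97e-04). That raw p is the smallest a rho over 7 lines can give. A pass thus needs many relations at this bound, and the lack of calls on rho decides nothing. In MEF-2, Col4a3 followed both Col5a2 (r = 0.996) and Col5a1 (r = 0.993), and Col7a1 ran opposite to Col2a1 (r = −0.991, and −0.961 without the 2 lines farthest from the median). Col2a1 was lowest in MEF-2 clonal lines 2 and 7 (17.28 and 17.32), the lines with the highest Col7a1 (14.73 and 14.56), Col4a3 (10.88 and 10.54), Col18a1 (13.56 and 13.31) and Col5a1 (18.84 and 18.76). The same lines were also the lowest MEF-2 clonal lines for the cartilage collagens Col11a1 (17.003 and 16.83), Col11a2 (9.02 and 8.69), Col9a2 (7.65 and 7.09) and Col9a3 (9.49 and 9.68), and Col9a1, at 6.21 in both, lay inside the MEF-2 range. Of the 6 chondrocyte markers, Acan (15.93 and 16.19), Sox9 (13.90 and 13.92) and Matn3 (7.78 and 7.53) lay inside the range of the other MEF-2 clonal lines in both. Hapln1 (5.32 and 5.80) was lowest in line 2, Comp (8.17 and 8.16) was lower in MEF-2 clonal line 1 alone (7.90), and Matn1 stood at 2.68 and 2.94. The part of chondrocyte-like cells in this pattern was not tested.

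Parental lines have 1 library each, and were set beside the range of their clonal lines without a test. The MEF-1 parental line lay outside that range for 20 of the 42 members (background 40.9%), 9 above and 11 below. The MEF-2 parental line lay outside for 16 (background 34.2%), of which 15 were above and 1, Col1a2, was below, whereas of all genes 15.8% lay above and 18.5% below. Of the 23 called members, 19 had a parental difference of the same sign, beside 86.1% of all called genes. Of the 14 members higher in the MEF-1 clonal lines, 8 had the MEF-1 parental line below all of its clonal lines, beside 39.9% of all genes called in that direction, and none had it above (5.25% of all). Of the 9 members higher in the MEF-2 clonal lines, 4 had the MEF-2 parental line above all of its clonal lines (8.6% of all genes called in that direction), and none had it below (26.4%).

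Col4a6 showed the widest gap. The MEF-2 parental line, at 8.38, was nearer to the MEF-1 parental line (9.34) than to its own clonal lines (4.28 to 5.49). For Col23a1 it was the MEF-1 parental line, at 6.76, that lay below its clonal lines (8.28 to 10.71) and near the MEF-2 parental line (7.07). The parental lines of both sets lay above their clonal lines for Col4a3 (8.76 in MEF-1 and 11.15 in MEF-2), Col4a4 (9.54 and 11.82) and Col2a1 (19.75 and 18.88). The Col9a3 level of the MEF-1 parental line, 9.89, was 1.41 above its highest clonal line. Col1a1 lay inside the clonal range in both sets.

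**Figure D5:**
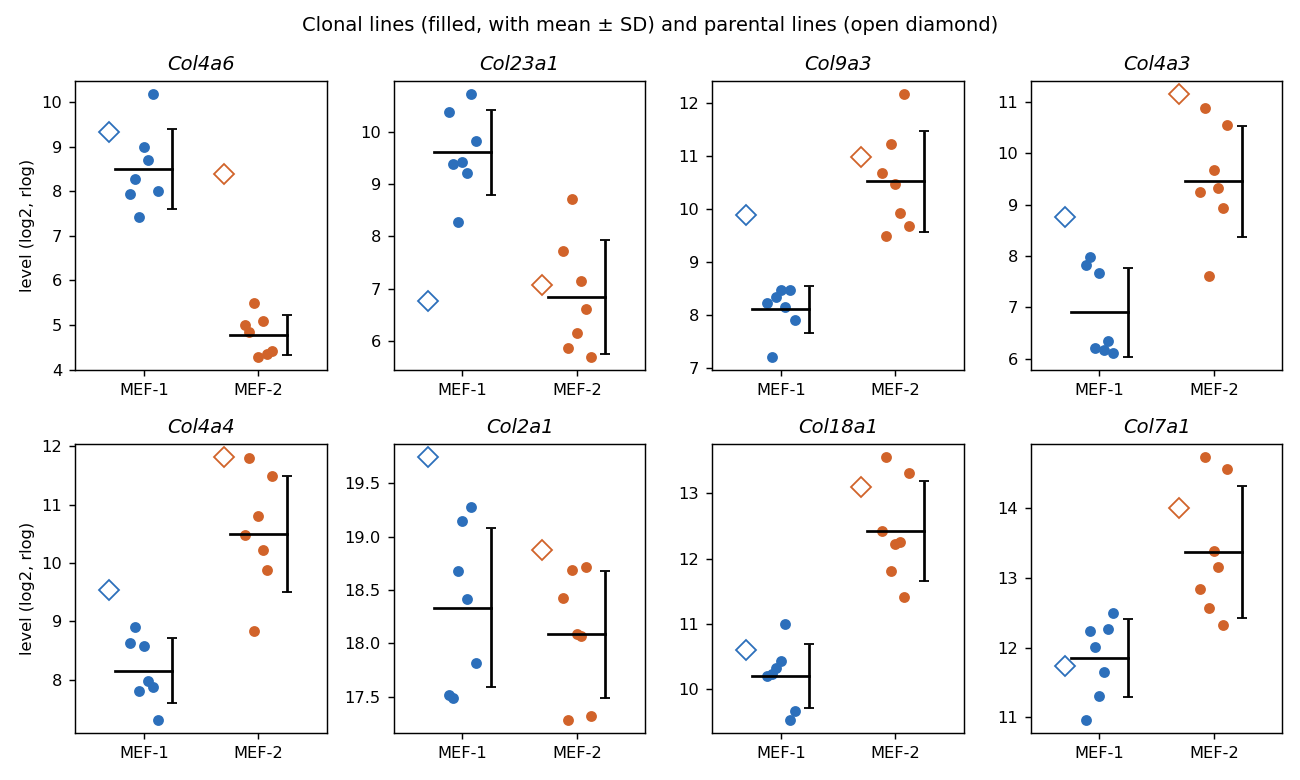
Rlog values of 8 collagen genes in the clonal lines (filled circles, with mean and SD of 7 lines) and the parental lines (open diamonds) of MEF-1 and MEF-2. The MEF-2 parental line lies 2.90 above its highest clonal line for Col4a6, and the MEF-1 parental line lies 1.52 below its lowest clonal line for Col23a1. The y axes do not start at 0.

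The machinery that modifies, exports, cleaves and cross-links collagen was followed through a list of 51 genes. Of the 50 tested, 7 were higher in MEF-2, 23 were higher in MEF-1 and 20 were not called, beside the 56.1% called over all genes. The median difference was −0.26. All 8 small leucine-rich proteoglycans of fibril assembly were higher in MEF-1, the widest being decorin (Dcn), which ran from 9.63 to 12.24 in MEF-1 and from 5.77 to 7.24 in MEF-2 (difference −4.74, SE 0.36, limma adjusted p = 5.43e-08). Lumican (Lum, −3.68), the procollagen C-proteinase enhancer Pcolce2 (−2.96) and Prelp (−2.32) followed, each without overlap between the sets (limma adjusted p-values of 6.35e-06 to 7.64e-05). Among the 8 proteoglycans, Kera was near the low end of the table, with an average of 0.40. The MEF-1 parental line lay below all of its clonal lines for Dcn (8.07), Lum (7.94), Ogn, Aspn and Kera. It lay inside their range for Bgn, Fmod and Prelp. The MEF-2 parental line stood at 6.21 for Dcn. In the other direction, the procollagen protease gene Tll1 (3.12), the lysyl oxidase genes Loxl2 (2.12) and Lox (1.37) and the galactosyltransferase gene Colgalt1 (0.52) were higher in MEF-2, also without overlap (limma adjusted p-values of 1.49e-06 to 4.23e-05). Lox lies on chromosome 18, and its difference was 1.09 after the median of the chromosome was taken off. Of the 12 prolyl and lysyl hydroxylation genes, 4 were higher in MEF-1 and none was called higher in MEF-2 by limma or by the exact permutation test, with 3 at an unadjusted limma p under 0.05. After centring each line 2 were called higher in MEF-2, and after removal of the chromosome medians 3. Serpinh1, the collagen chaperone, was not called (difference 0.25, limma adjusted p = 0.125). Beside these differences, the smooth muscle markers Cnn1 and Myh11 were higher in MEF-2 by 3.52 and 1.92 and the third, Des, was not called. Cnn1 ran from 9.08 to 11.32 in MEF-1 and from 12.68 to 14.64 in MEF-2, without overlap. Myh11 ran from 5.54 to 6.06 and from 5.75 to 9.51, with overlap. The summed level of the 3, at 9.23 to 11.35 in MEF-1 and 12.70 to 14.65 in MEF-2, is nearly that of Cnn1 alone. Of the fibroblast markers, Pdgfra was higher in MEF-1 (−1.85) and Thy1 in MEF-2 (2.59), and 6 were not called. Whether the sets differ in cell character, and the part of this in the collagen values, was not tested.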

How the data were processed

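Total RNA was sequenced from 16 lines (1 library each). The authors trimmed the reads with Trim Galore 0.6.0, quantified transcripts with Salmon 1.5.2 against mm10 (Ensembl release 102) and deposited log2 values made with the rlog transformation of DESeq2 1.24.0. The step from transcripts to genes, and the use of a blind or a design-aware rlog, are not given in the sources used here. No counts were at hand, so depth is unknown and the count test was not used.

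Ensembl identifiers were looked up in GENCODE mouse release 21 (Ensembl release 96, mm10). Protein-coding genes with an average above 0 (15285 genes, 42 of the 44 collagen genes) were fitted with limma 3.58.1 in R 4.3.3, with a trended prior and no covariate, 7 MEF-1 against 7 MEF-2 clonal lines, and called at a Benjamini-Hochberg adjusted p under 0.05. Parental lines stayed out of the fit. Balance and co-variation of partner chains were tested with exact permutations in Python 3.11.15 (scipy 1.17.1). The fit was tested on simulated data. Alternatives covered scaling, chromosome dosage, filters, variance prior, test and single lines left out.

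Line values are given for Col1a1, Col1a2, Col3a1, Col5a1, Col5a2, Col6a1, Col6a2, Col6a3, Col4a1 and Col4a2, the 6 called members with the largest difference in each direction, and the 2 with the widest range in each set above the 40th percentile. From the processing list the 4 largest calls in each direction are named. Serpinh1 and the other collagen genes named with values were taken beside this rule. The members and lists were chosen with earlier results of these data known. Methylation data were not analysed here.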

Additional observations from a re-analysis of the deposited data

Results flagged for a closer look

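Dixon's test was run on the 84 sets of 7 clonal lines (42 genes in 2 sets), of which chance alone picks about 1 in 20, or 4.2, and 4 were found. Col26a1 stood at 8.0 in MEF-1 clonal line 1, far above the other 6 lines (median 2.16, nearest 3.41). Col26a1 also stood apart in MEF-2 clonal line 6, at 2.03, but within a range of 0.67. Col6a1 was highest in MEF-2 clonal line 2 at 16.09, with the nearest line at 15.58. Col6a5 was highest in MEF-2 clonal line 1 at 1.1, with the nearest line at 0.78, on a level near the low end of the table.

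Col5a3 moved in opposite directions from the parental lines. The clonal mean less the parental line was 0.28 in MEF-1 and −1.40 in MEF-2, and every clonal line lay above the parental line in MEF-1 and below it in MEF-2. The nearest clonal line was only 0.017 from the parental line in MEF-1 and 0.025 from it in MEF-2. Each parental line has 1 library, and whether the sets differ in this was not tested.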

How the results depend on the processing

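The number of collagen genes called was 23, between 22 and 25 without each clonal line in turn and between 20 and 26 under the other settings (8 to 11 and 9 to 11 of them higher in MEF-2, 14 to 16 and 11 to 16 higher in MEF-1), and that of processing genes was 30, or 28 to 33 over all settings. The 8 members without overlap were 8 to 13 without each line, 13 without MEF-2 clonal line 3, and 3 with parental lines included. The direction of these changes is fixed by the count itself. Of the 17 balances, 9 passed, or 9 to 11, and of the 34 partner relations 14, or 13, and 11 on Spearman's rho. The counts with a range of 1 or more were 11 to 13 in MEF-1 and 11 to 14 in MEF-2. Over 25 settings, 984 of 1045 values of single genes kept their direction and their side of the threshold, and 26 genes did so under every setting that gave them a value. Of the 42 genes, 37 had a value in all settings, the other 5 being below the 40th percentile filter. The direction turned only for genes that were not called. Col5a3 was at −0.028 after quantile normalisation, and Col10a1 at 0.29 after it and at 0.012 with parental lines included. Without each line in turn, Col5a3 ran from −0.22 to 0.16, Col10a1 from −0.28 to 0.23, Col28a1 from −0.11 to 0.30 and Col15a1 from −0.11 to 0.35. Quantile normalisation ended the calls of Col17a1, Col25a1 and Col6a5 (limma adjusted p = 0.219, 0.119 and 0.0672). The cause was not tested.

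Clone numbers are shared by the sets but mark different cells. Deviations of same-numbered lines correlated between −0.13 and 0.20, and 1 of 7 lines correlated best with its own number. With the replicate block 25 collagen genes were called (9 higher in MEF-2 and 16 in MEF-1), with 30 processing genes and 9 balances. Col11a1 (limma adjusted p = 0.0113) and Col4a2 (limma adjusted p = 0.0396) were called under it.

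Depth is unknown, shrinkage narrows the differences of genes with few reads, and order by level depends on exon length, 10 of 44 levels per kilobase moving by more than 1 SD with the longest transcript.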
